A study of Mus musculus with 28 samples.

Results

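The cells described here are the Elane-high cells of a mouse MOZ-TIF2 line one day after the vehicle DMSO was added. They were chosen by measured values in the single-cell tables, namely their Elane, S100a8 and S100a9 levels. Levels are counts of unique molecular identifiers (UMIs, each one captured RNA molecule) per 1000000 UMIs of the listed genes (CPM). A cell belonged if S100a8 and S100a9 together were under 1000 CPM and Elane was at least 400 CPM. The rule found 186 cells among the 883 day 1 DMSO cells and the 5696 single cells of the series. They are set against 236 Elane-low cells of the same sample, which met the same S100a8 and S100a9 limit and had Elane under 50 CPM. A further 284 cells lay between the 2 classes, and 177 cells reached the S100a8 and S100a9 limit and were left out. Elane chose the classes and is therefore no finding. It ran over Elane-high cells from 401 to 6552 CPM, with a median of 918. The 3 cells just inside the limit had 400.7, 404 and 410 CPM, and the 3 just outside had 390.2, 393 and 396.

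The line was made by retroviral transduction of c-Kit+ stem and progenitor cells from C57Bl/6 bone marrow with Ty1-tagged MOZ-TIF2, followed by sorting of GFP+ cells and serial replating in methylcellulose. It is 1 line, so every cell carries the fusion and no single cell of another genotype serves as a control. In single cells it was measured after 5 µM benzarone for 1 day, DMSO for 1 day, 5 µM benzarone for 3 days, and either agent for 5 days, the last 2 in 1 sample. Bulk RNA came from 2 libraries each of MOZ-TIF2 cells, of c-Kit+ cells given an empty vector and called differentiated, both sorted on GFP and grown for 4 days with cytokines, and of freshly isolated c-Kit+ cells. Ty1 chromatin immunoprecipitation of the MOZ-TIF2 cells had 2 replicates.

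MOZ-TIF2 is a fusion of a histone acetyltransferase with a nuclear receptor coactivator and is found in acute myeloid leukaemia. In normal bone marrow, Elane encodes neutrophil elastase, a serine protease of the primary (azurophil) granules that granulocyte progenitors fill before they make secondary granules and S100a8 and S100a9 in quantity. Mpo encodes myeloperoxidase, and Prtn3 and Ctsg encode the related proteases proteinase 3 and cathepsin G of the same granules. C/EBP factors, PU.1, RUNX1, MYB and GFI1 are known regulators of this granule program, whereas IRF8 acts in monocytes and dendritic cells.

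The upstream regions of 4 granule genes are shown: Elane, which set the classes, and Mpo, Prtn3 and Ctsg, which were higher in Elane-high cells. Each runs 5′ to 3′ on the gene's own strand from 250 bases before the RefSeq start to 50 after it (RefSeq, GRCm38.p6), and capitals mark the PU.1 core GAGGAA and the RUNX core, TGTGGT or its reverse ACCACA. Elane lies on the plus strand at chr10:79886062-79886361, Prtn3 on the plus strand at chr10:79879417-79879716, Mpo on the plus strand at chr11:87793534-87793833 and Ctsg on the minus strand at chr14:56102525-56102824.
Elane: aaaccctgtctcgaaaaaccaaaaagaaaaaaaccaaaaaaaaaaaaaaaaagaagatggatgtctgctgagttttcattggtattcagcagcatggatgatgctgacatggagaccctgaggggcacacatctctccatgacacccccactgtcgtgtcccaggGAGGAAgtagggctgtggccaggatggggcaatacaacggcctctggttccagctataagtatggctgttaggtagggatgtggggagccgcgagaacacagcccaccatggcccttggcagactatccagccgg
Prtn3: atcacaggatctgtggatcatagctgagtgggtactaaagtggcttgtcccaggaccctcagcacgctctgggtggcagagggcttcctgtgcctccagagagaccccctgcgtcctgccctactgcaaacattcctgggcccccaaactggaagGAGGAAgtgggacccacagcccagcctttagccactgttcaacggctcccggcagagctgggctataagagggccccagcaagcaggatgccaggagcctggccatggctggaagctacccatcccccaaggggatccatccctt
Mpo: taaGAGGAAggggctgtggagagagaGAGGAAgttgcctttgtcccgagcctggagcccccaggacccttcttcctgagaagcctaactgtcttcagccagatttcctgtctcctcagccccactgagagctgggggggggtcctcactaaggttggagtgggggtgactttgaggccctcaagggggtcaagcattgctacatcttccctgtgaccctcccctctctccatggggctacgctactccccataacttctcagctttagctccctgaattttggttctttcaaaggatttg
Ctsg: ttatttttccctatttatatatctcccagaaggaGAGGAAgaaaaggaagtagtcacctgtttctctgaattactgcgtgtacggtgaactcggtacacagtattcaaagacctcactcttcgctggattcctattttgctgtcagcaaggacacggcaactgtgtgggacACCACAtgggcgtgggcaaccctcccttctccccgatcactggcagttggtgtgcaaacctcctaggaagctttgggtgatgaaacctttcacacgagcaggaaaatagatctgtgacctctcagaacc
All 4 windows held GAGGAA, at bases 166 to 171 for Elane, 156 to 161 for Prtn3, 4 to 9 and 27 to 32 for Mpo, and 35 to 40 for Ctsg. On both strands, 28.3% of the 32851 promoters given hold this core. The RUNX core stood once, in Ctsg at bases 172 to 177, and 16.8% of all promoters hold it. The C/EBP core TTGCNNAA stood in none of the 4 windows and in 10.8% of all promoters, and the MYB core AACNG stood in all 4 and in 80.3%. Elane and Prtn3 are neighbours on chromosome 10, with gene bodies at 79886312 to 79888216 and 79879667 to 79883174. These matches are a description of letters and say nothing of binding.

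Depth and quality were close between the classes. Median UMIs per cell were 44388.5 in Elane-high and 42511.5 in Elane-low cells, and after thinning to 15000 UMIs the median number of listed genes detected was 3309.5 and 3261. Mitochondrial UMIs took a median of 2.31% in Elane-high and 2.36% in Elane-low cells. Each table lists part of the genes, 9448 in that of days 1 and 3 and 11662 in that of day 5. Day 5 was counted separately, and its levels are compared only within it. Over all pairs of conditions 12 cell barcodes were shared, and 3 of them involved day 1 DMSO. Of 9 eosinophil and 11 T and NK marker genes, 0 were among the listed genes, so these types could not be assessed. Of 16 mast cell genes 4 were listed, and of 11 B cell genes 1, and none of these reached 20 CPM in either class.

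Most primary granule genes measured were higher in Elane-high than in Elane-low cells, and every Elane-high cell held Mpo, Prtn3 and Ctsg. Among 4866 genes with at least 20 CPM and 20 UMIs in the higher class, 159 (3.27%) were at least 1.5-fold higher in Elane-high cells and 317 (6.51%) at least 1.5-fold lower. Each class is 1 sum over cells of 1 sample and the classes were cut on these cells, so these are descriptions without a test, and intervals cover counting error only. Of 17 primary granule genes measured, 11 were at least 1.5-fold higher and 2 at least 1.5-fold lower, with a median log2 ratio of 0.88, against 0.06 over all genes tested. Summed over the list, the level was 21133 CPM in Elane-high and 12145 CPM in Elane-low cells.

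Mpo ran over Elane-high cells from 235 to 6647 CPM with a median of 2416, against 0 to 4581 CPM with a median of 1045 in Elane-low cells. The middle 50% of Elane-high cells, 1974 to 2913 CPM, lay above the middle 50% of Elane-low cells, 321 to 1669 CPM, although the full ranges overlapped. As sums, Mpo stood at 2476 CPM in Elane-high and 1078 CPM in Elane-low cells, a ratio of 2.30 (95% interval 2.24 to 2.35). Prtn3 had a median of 4317 CPM in Elane-high cells (range 1932 to 8736) and 2465 CPM in Elane-low cells (range 35.7 to 5076), and the ratio of sums was 1.84. Ctsg had a median of 3972 CPM in Elane-high cells (range 1395 to 11355) and 1703 CPM in Elane-low cells (range 0 to 6176), and the ratio was 2.39. No Elane-high cell lacked any of the 3, but single Elane-low cells reached the Elane-high range for each of them. Ms4a3, a membrane gene known to mark granulocyte and monocyte progenitors, summed to 2177 CPM in Elane-high and 926 CPM in Elane-low cells. Prss57, which encodes a further neutrophil serine protease, had 81.0 CPM in Elane-high and 21.3 CPM in Elane-low cells, a ratio of 3.80 (interval 3.26 to 4.45). Serpinb1a, an inhibitor of such proteases, had 195 CPM in Elane-high and 98.4 CPM in Elane-low cells. Cst7, the inhibitor cystatin F, had 251 CPM in Elane-high and 121 CPM in Elane-low cells. Cd63, a tetraspanin of granule membranes, had 60.3 CPM in Elane-high and 24.8 CPM in Elane-low cells, but 6 of the 186 Elane-high cells held at least 50% of its UMIs. The 2 members that were lower are Ctsc, the peptidase that activates granule serine proteases, at 58.2 CPM in Elane-high and 205 CPM in Elane-low cells, and Lyz2, lysozyme, at 371 and 1204 CPM in Elane-high and Elane-low cells.

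**Figure D1:**
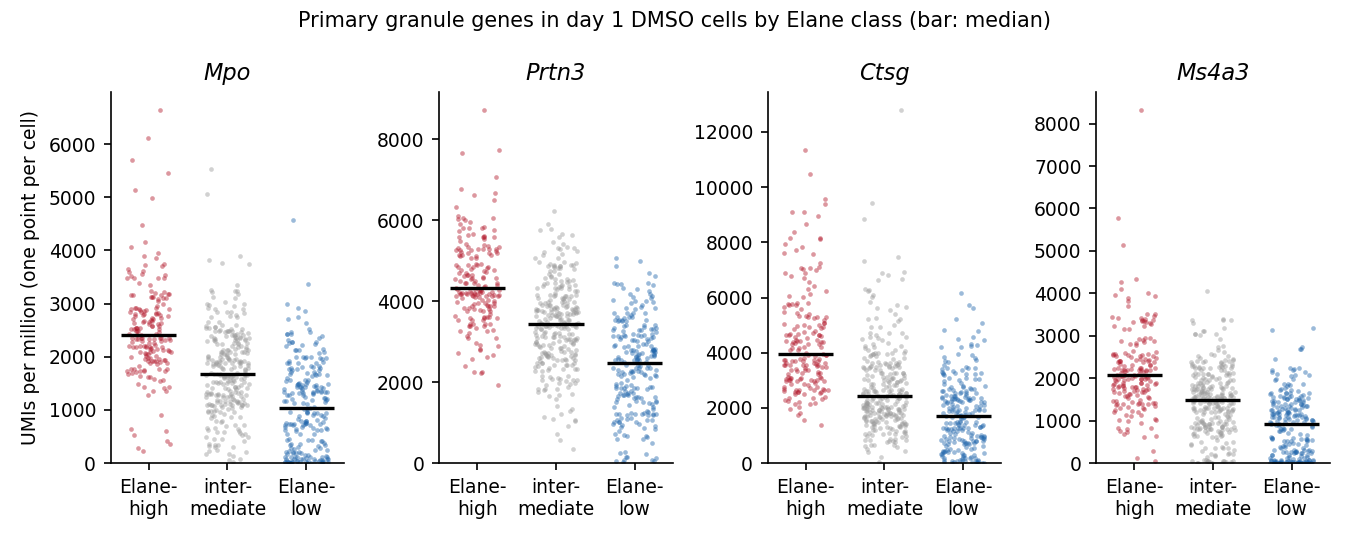
Levels of Mpo, Prtn3, Ctsg and Ms4a3 in CPM (vertical axis, linear) in each day 1 DMSO cell, by Elane class, with a bar at the median. The Elane-high medians for Mpo, Prtn3 and Ctsg are 2416, 4317 and 3972 CPM, against 1045, 2465 and 1703 CPM in Elane-low cells, and the clouds overlap.

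Among granulocyte transcription factors Cebpe and Cebpa passed the 1.5-fold limit, both higher in Elane-high cells, and the other 6 of the 8 measured did not. Cebpe, which drives the step to secondary granules, had a median of 17.5 CPM in Elane-high cells (range 0 to 358) and 0 CPM in Elane-low cells (range 0 to 247.5). A UMI was seen in 51.1% of Elane-high and 8.05% of Elane-low cells, and the sums were 35.3 and 3.64 CPM, a ratio of 9.70 (interval 6.88 to 14.0). In the 177 cells at or over the S100a8 and S100a9 limit Cebpe summed to 111 CPM, so Elane-high cells lay between those cells and Elane-low cells. Cebpa, which is needed for entry into the granulocyte lineage, was detected in 83.9% of Elane-high and 30.5% of Elane-low cells. Its sums were 57.4 CPM in Elane-high and 13.8 CPM in Elane-low cells, a ratio of 4.17, and 34.0 CPM in the cells over the limit. Gfi1, a repressor of monocyte genes, had 48.2 CPM in Elane-high and 33.5 CPM in Elane-low cells, a ratio of 1.44. Whether Gfi1 passed 1.5-fold depended on the setting. Its ratio was 1.95 without the S100a8 and S100a9 limit and 1.48 with an Elane-high limit of 800 CPM. Spi1, which encodes PU.1, stood at 260 CPM in Elane-high and 272 CPM in Elane-low cells, and Cebpb at 553.5 and 577 CPM.

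The 12 largest ratios among genes at 50 CPM or more in the higher class held 8 further genes besides Cebpa, Ctsg, Prss57 and Cd63. Ly6c2, a surface antigen of granulocytes and monocytes, had 162 CPM in Elane-high and 35.7 CPM in Elane-low cells, a ratio of 4.53 (interval 4.03 to 5.10), and 432 CPM in the cells over the S100a8 and S100a9 limit. Ly6c2 has a near-identical neighbour, Ly6c1, so its counts are uncertain. Rgcc, a regulator of the cell cycle, had 174 CPM in Elane-high and 38.7 CPM in Elane-low cells. Mgst2, a microsomal glutathione transferase, had 62.2 and 14.2 CPM in Elane-high and Elane-low cells, a ratio of 4.36. Clec12a, an inhibitory lectin receptor, had 76.4 CPM in Elane-high and 21.2 CPM in Elane-low cells, and Ramp1, a receptor-modifying protein, 100 and 31.5 CPM. Gng12, a G protein subunit, reached 324 CPM in Elane-high and 126 CPM in Elane-low cells, and Rasgrp2, which activates the GTPase Rap1, 102 and 41.6 CPM. Anxa3, an annexin, had 245 CPM in Elane-high and 95.7 CPM in Elane-low cells. Most higher genes were spread over the cells: for 148 of the 159 higher genes it took 24 or more Elane-high cells to hold 50% of the UMIs, and the median was 42 cells. Kit, the receptor for stem cell factor, was at 10.0 CPM in Elane-high and 4.22 CPM in Elane-low cells, below the level needed for a call.

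Some stem and progenitor genes and most monocyte genes measured were lower in Elane-high cells. Of 16 stem and progenitor genes measured, 7 were at least 1.5-fold lower, 8 did not reach 1.5-fold either way and 1, the ETS factor Fli1 (52.2 CPM in Elane-high and 29.0 CPM in Elane-low cells), was at least 1.5-fold higher. The median log2 ratio of the list was -0.47. Of 9 monocyte and macrophage genes, 7 were at least 1.5-fold lower and 1, Ly6c2, higher, with a median log2 ratio of -1.62, beside the 3.27% higher and 6.51% lower over all genes tested. Over the 21 listed genes of this kind the sum was 455 CPM in Elane-high and 628 CPM in Elane-low cells, whereas the median cell held 403 CPM in Elane-high and 334 CPM in Elane-low cells. The richest cell held 2580 CPM in Elane-high and 8927 CPM in Elane-low cells, so sum and median gave opposite orders. Cd34, a surface antigen of early progenitors, was found in 24 of 186 Elane-high and 96 of 236 Elane-low cells, with sums of 4.17 and 33.4 CPM and a ratio of 0.12. Meis1, a homeobox cofactor of HOXA9, had 13.2 CPM in Elane-high and 64.2 CPM in Elane-low cells, a ratio of 0.21, with medians of 0 and 25.9 CPM. Sox4, a transcription factor of immature cells, had 66.9 CPM in Elane-high and 195 CPM in Elane-low cells. Hoxa9 itself was nearly level, at 222 CPM in Elane-high and 239 CPM in Elane-low cells, a ratio of 0.93 that turned to 1.03 without the S100a8 and S100a9 limit, while Hoxa7 had 90.3 and 145 CPM. Among monocyte and dendritic cell genes, Irf8 was detected in 32.3% of Elane-high and 67.4% of Elane-low cells, with sums of 12.4 and 37.4 CPM and a ratio of 0.33. Tcf4, which specifies plasmacytoid dendritic cells, had 15.7 CPM in Elane-high and 42.9 CPM in Elane-low cells. Of 3 dendritic cell and MHC class II genes measured, 2 were at least 1.5-fold lower. The other, Bst2, was nearly level, at 96.4 CPM in Elane-high and 92.7 CPM in Elane-low cells. Ms4a6c, a membrane gene of monocytes, had 6.91 and 50.1 CPM in Elane-high and Elane-low cells. Tpm4, an actin-binding tropomyosin, was present in 53 of 186 Elane-high and 186 of 236 Elane-low cells, with a ratio of 0.15.

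The lower genes differed in how many Elane-low cells carried them. More than 50% of the Cxcl2 UMIs of the class lay in 1 cell, which held 877, and the same was true of Ppbp, whose richest cell held 315. Cxcl2, a neutrophil-attracting chemokine, summed to 1.19 CPM in Elane-high and 161 CPM in Elane-low cells but was seen in only 39 of the 236. Without the 5 richest cells of each class, Ppbp, a platelet chemokine, had 0.85 CPM in Elane-high and 1.00 CPM in Elane-low cells, so its difference rested on those cells. Under the same omission Mmp8, the neutrophil collagenase, had 2.32 CPM in Elane-high and 91.0 CPM in Elane-low cells, and Cxcl2 had 0.61 and 20.6 CPM. At the other end, 34 Elane-low cells were needed to hold 50% of the Meis1 UMIs, 42 for Irf8 and 42 for Tpm4. Of the 317 lower genes, 20 had 50% of their Elane-low UMIs in 5 cells or fewer, and for 240 it took 24 cells or more. With the 5 richest cells of each class left out gene by gene, 152 genes were higher and 280 lower, of which 145 and 260 were in the full counts too. Within Elane-low cells Cd34 and Meis1 occurred together in 74 cells, with a Spearman rho of 0.41 over 236 cells that share 1 library. Elane-low cells with a Cxcl2 UMI had a median Mpo of 284 CPM, against 1182 CPM in those without.

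**Figure D2:**
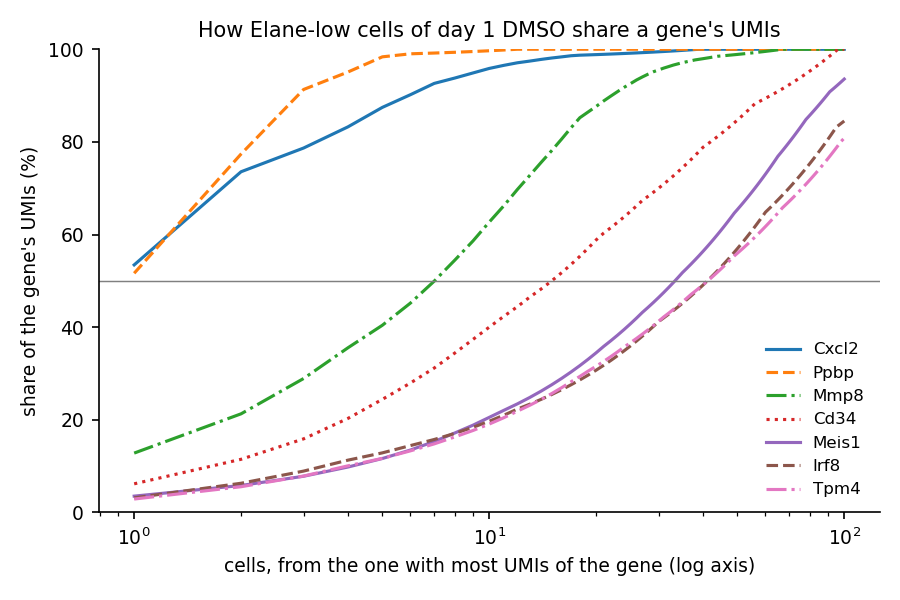
Share of a gene's UMIs in the 236 Elane-low cells of day 1 DMSO (vertical axis, percent) held by the richest 1 to 100 cells (horizontal axis, log scale) for 7 genes that were lower in Elane-high cells. Cxcl2 and Ppbp pass 50% with 1 cell and Mmp8 with 8, whereas Cd34 needs 15, Meis1 34, and Irf8 and Tpm4 42 each.

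Most secretory and cholesterol genes did not pass 1.5-fold, but a larger share of them was higher than over all genes tested. The list counts that follow stand beside 3.27% higher and 6.51% lower over all genes tested. Of 27 genes of endoplasmic reticulum folding and secretion, 5 were at least 1.5-fold higher and 1, Edem1, at least 1.5-fold lower, and the list summed to 12821 CPM in Elane-high and 9830 CPM in Elane-low cells. Calr, the chaperone calreticulin, had 1608 CPM in Elane-high and 973 CPM in Elane-low cells, a ratio of 1.65. Sdf2l1, a cofactor of the chaperone BiP, had 719 and 435.5 CPM in Elane-high and Elane-low cells, and Manf, a secreted protein induced by unfolded proteins, had 904 and 561 CPM. Of 19 cholesterol synthesis genes, 4 were at least 1.5-fold higher and none lower. Fdps, which makes farnesyl diphosphate, had 338 CPM in Elane-high and 204 CPM in Elane-low cells. No gene passed 1.5-fold either way among the lists for DNA replication (25 measured), mitosis (23), ribosome synthesis (18), glycolysis (16), amino acid supply (14) and cytosolic ribosomal proteins (80). Of 12 immediate early genes, 6 were at least 1.5-fold lower, among them the transcription factor Klf6, at 20.8 CPM in Elane-high and 54.8 CPM in Elane-low cells. Of 5 p53 targets, 2 were at least 1.5-fold lower and 3 did not reach 1.5-fold either way. Cdkn1a, the cell cycle inhibitor p21, had 97.6 CPM in Elane-high and 223 CPM in Elane-low cells. Of 2 interferon response genes, 1 was at least 1.5-fold lower and 1 did not reach 1.5-fold. The lower was Ifitm3, an interferon-inducible membrane protein, at 1118 CPM in Elane-high and 1916 CPM in Elane-low cells. Of 9 secondary granule and late neutrophil genes, 6 were lower by at least 1.5-fold and 1 was higher, Pglyrp1, a peptidoglycan-binding protein, at 132 CPM in Elane-high and 56.2 CPM in Elane-low cells. All 18 listed genes of this kind summed to 436 CPM in Elane-high and 710 CPM in Elane-low cells, whereas the median cell held 403 CPM in Elane-high and 172 CPM in Elane-low cells. The richest cell held 1307 CPM in Elane-high and 19268 CPM in Elane-low cells. Ltf, Camp and Ngp, which define secondary granules, stayed under 1 CPM in both classes.

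The Elane-high cells were not uniform. Across 6 bands of rising Elane, from Elane-low cells through intermediate cells to the 4 quartile groups of Elane-high cells, Mpo stood at 1078, 1722, 2268, 2410, 2415 and 2814 CPM. Ctsg followed a like course, at 1839, 2790, 4047, 4043, 4013 and 5463 CPM. Both genes thus differed little among quartile groups 1 to 3 of Elane-high cells. Cebpe had its steps elsewhere, at 3.64, 10.1, 10.2, 24.6, 36.1 and 71.2 CPM, so it also differed widely within Elane-high cells. Ly6c2 stood at 35.7, 80.1, 86.1, 158, 153 and 251 CPM over the same bands. Irf8 had 37.4, 24.1, 18.6, 15.8, 6.51 and 8.12 CPM, while Cd34 had 33.4, 12.5, 5.12, 3.24, 4.01 and 4.30 CPM. Most of the Cd34 difference therefore lay between Elane-low cells and quartile group 1 of Elane-high cells. Hoxa9 had 239, 214, 198, 208, 218 and 262 CPM, with no single direction. Among the 186 Elane-high cells the Spearman rho of Elane was 0.17 with Mpo, 0.28 with Prtn3 and 0.26 with Ctsg, and that of Mpo with Ctsg was 0.54. Over all 706 cells within the S100a8 and S100a9 limit the same 4 values were 0.60, 0.65, 0.60 and 0.73. All of these cells share a library, and the values are a description only.

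**Figure D3:**
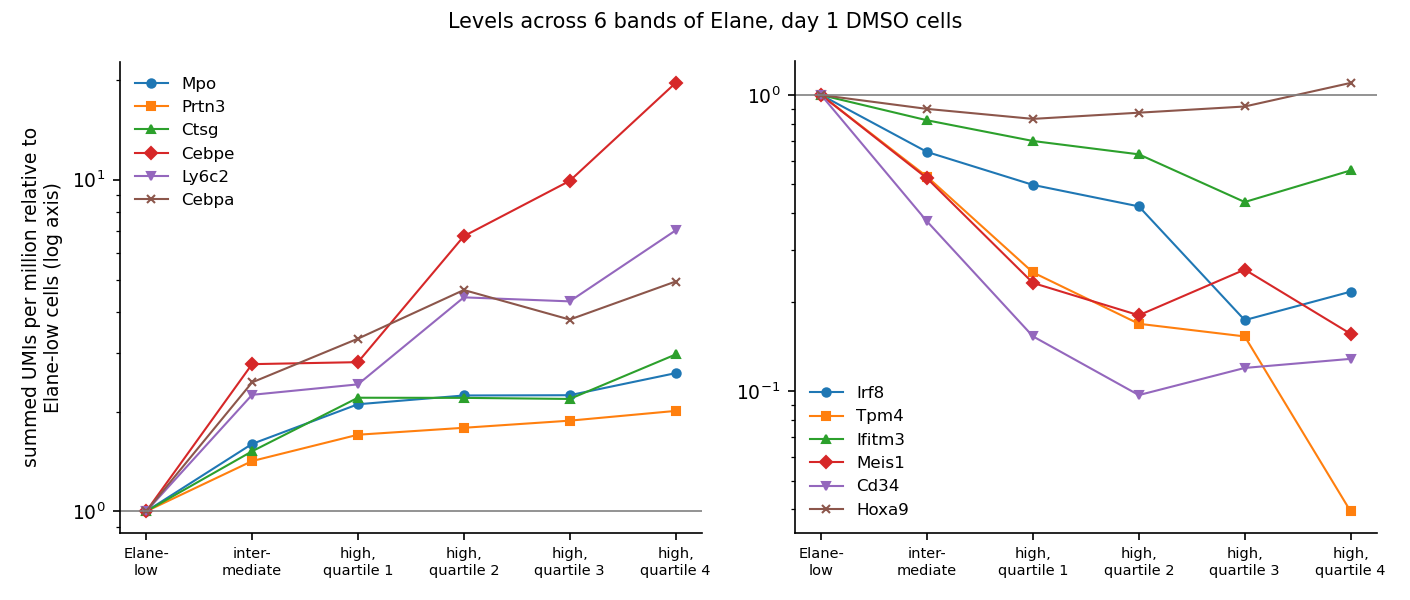
Summed CPM relative to Elane-low cells (vertical axes, log scale) for 12 genes in 6 bands of day 1 DMSO cells ordered by Elane, from Elane-low to quartile 4 of Elane-high cells. Within Elane-high cells Cebpe spans 10.2 CPM in quartile 1 to 71.2 CPM in quartile 4, Mpo, Prtn3 and Ctsg differ less, and Cd34 and Meis1 are already low in quartile 1.

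Elane-high cells made up a like share of the cells within the S100a8 and S100a9 limit on days 1 and 3 and a very small one after 5 days of benzarone. On day 1 the share was 26.1% in benzarone (173 of 664 cells, exact binomial interval 22.8 to 29.6%) and 26.3% in DMSO (186 of 706 cells, 23.1 to 29.8%). On day 3 in benzarone it was 28.1% (183 of 652 cells). On day 5 it was 1.08% in benzarone (9 of 833 cells, 0.495 to 2.04%) and 18.9% in DMSO (251 of 1325 cells, 16.9 to 21.2%). Each condition is 1 sample, so no test was made, and the intervals cover counting error only. More day 5 cells in benzarone were over the S100a8 and S100a9 limit (663 of 1496) than in DMSO (337 of 1662), and without that limit the shares were 2.87% in benzarone and 20.8% in DMSO. Day 5 cells were also shallower. Thinned to 15000 UMIs per cell, the day 5 shares were 1.35% in benzarone and 19.7% in DMSO. Elane-low cells were 93.8% of day 5 benzarone cells and 42.5% of day 5 DMSO cells within the limit.

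**Figure D4:**
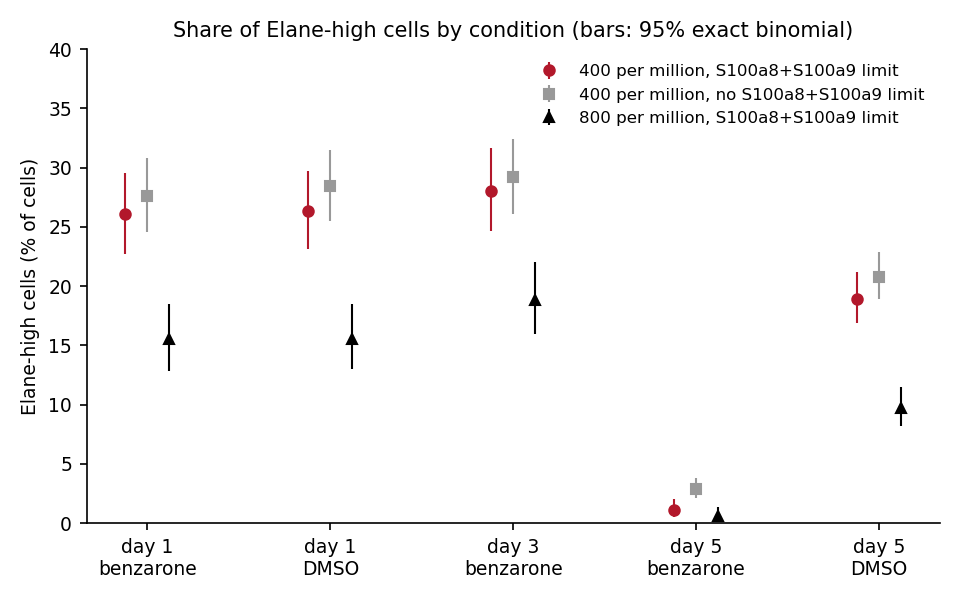
Elane-high cells as a percentage of cells (vertical axis, from 0) in the 5 conditions, with exact 95% binomial bars, at the limits described, without the S100a8 and S100a9 limit, and with an Elane limit of 800 CPM. The shares lie near 26 to 28% on days 1 and 3 and at 1.08% in benzarone and 18.9% in DMSO on day 5 (circles).

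Elane-high cells of benzarone samples were close to those of day 1 DMSO in most genes. Between benzarone and DMSO on day 1, 17 of 4696 genes (0.362%) were at least 1.5-fold higher and 25 (0.532%) at least 1.5-fold lower in benzarone. For day 3 benzarone over day 1 DMSO, where the day differs as well, 92 of 4714 genes (1.95%) were higher and 41 (0.87%) lower. Mpo in Elane-high cells was 2692 CPM in day 1 benzarone, 2299 CPM in day 3 benzarone and 2476 CPM in day 1 DMSO. Plin2, a lipid droplet coat protein, had 140 CPM in day 1 benzarone, 252 CPM in day 3 benzarone and 52.5 CPM in day 1 DMSO. Elane-low cells showed the same order for Plin2, with 220, 572 and 63.1 CPM in those 3 conditions. Pdcd4, an inhibitor of translation, had 86.5 CPM in day 1 benzarone, 117 CPM in day 3 benzarone and 47.5 CPM in day 1 DMSO in Elane-high cells, against 34.1, 44.4 and 35.2 CPM in Elane-low cells. Ccl6, a myeloid chemokine, had 49.96 CPM in day 1 benzarone, 145 CPM in day 3 benzarone and 26.2 CPM in day 1 DMSO in Elane-high cells. Elane-low cells had more Ccl6 and showed the same order, with 707, 2045 and 80.7 CPM in those 3 conditions. In Elane-high cells Cebpa stood at 42.6 CPM in day 1 benzarone, 36.3 CPM in day 3 benzarone and 57.4 CPM in day 1 DMSO. Cebpe stood at 40.3, 62.1 and 35.3 CPM in these cells in the same conditions. Plin2, Pdcd4 and Ccl6 were picked after their values were seen, and with 1 sample a condition none of these differences was tested.

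The contrast of Elane classes was tested in the samples that the rule had not used: day 1 benzarone, day 3 benzarone and day 5. UMIs were summed per sample and class over the genes of both tables and compared with edgeR's quasi-likelihood test with the sample as a block. Elane, S100a8 and S100a9 were given no call. Of 9161 genes, 1125 (12.3%) were higher and 1634 (17.8%) lower in Elane-high cells at an adjusted p under 0.05. On day 5 the 2 agents were summed, and benzarone gave 9 of the 260 Elane-high and 781 of the 1344 Elane-low cells, so agent and class move together there. With day 5 DMSO cells alone, 384 genes (4.19%) were higher and 583 (6.36%) lower, and values from this fit are given beside the first. The calls leaned on single samples. Without day 3 benzarone 182 genes were higher and 882 lower, and with day 5 DMSO cells alone and without day 1 benzarone 1 gene was higher and 0 lower by edgeR, while 1254 genes then had an unadjusted p under 0.05. Of the genes at least 1.5-fold higher in day 1 DMSO, 123 of 154 measured were called higher and 1 lower, or 113 higher with day 5 DMSO cells alone. Of those at least 1.5-fold lower, 285 of 313 were called lower, or 191 with day 5 DMSO cells alone.

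Mpo, Prtn3 and Ctsg were higher in Elane-high cells of each of these samples. Over the genes in both tables, Mpo had 2732, 2332 and 3091 CPM in Elane-high cells of day 1 benzarone, day 3 benzarone and day 5 DMSO, against 1104, 522 and 1456 CPM in Elane-low cells of these samples. The classes did not overlap. The log2 difference was 1.86 (SE 0.17, edgeR adjusted p = 0.000525), and 1.52 with day 5 DMSO cells alone (edgeR adjusted p = 0.0142), so Mpo was higher in 3 of 3 samples. Prtn3 was higher by 1.28 (SE 0.18, edgeR adjusted p = 0.00305) and Ctsg by 1.68 (SE 0.17, edgeR adjusted p = 0.000784), each in 3 of 3 samples. With day 5 DMSO cells alone the same differences were 1.01 (edgeR adjusted p = 0.00594) and 1.36 (edgeR adjusted p = 0.00635). Prss57 was the largest rise among genes at 50 CPM or more, by 2.56 on the log2 scale and by 2.23 with day 5 DMSO cells alone. Of 17 primary granule genes 12 were higher and 3 lower, or 10 and 1 with day 5 DMSO cells alone. Cd63 did not pass, at -0.25 (edgeR adjusted p = 0.43), and its sign turned with day 5 DMSO cells alone (0.33). With day 5 DMSO cells alone and without day 1 benzarone, Mpo, Prtn3, Ctsg and Prss57 lost their calls, at log2 differences of 1.62, 1.10, 1.42 and 2.23. As 2 day 5 blocks, Prtn3 and Ctsg also lost theirs, at 1.54 and 2.05.

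Cebpe had 40.9, 63.0 and 36.2 CPM in Elane-high cells of day 1 benzarone, day 3 benzarone and day 5 DMSO, against 5.19, 6.20 and 3.74 CPM in Elane-low cells of these samples. Its log2 difference was 3.11 (SE 0.12, edgeR adjusted p = 1.34e-05), and 3.20 with day 5 DMSO cells alone (edgeR adjusted p = 0.00162). Cebpa was higher by 1.67 on the log2 scale (edgeR adjusted p = 0.000238) and Gfi1 by 1.20 (edgeR adjusted p = 0.00155), and both passed with day 5 DMSO cells alone, at 1.46 and 0.94. Kit, too low for a call in day 1 DMSO, was higher by 1.53 (edgeR adjusted p = 0.00221), and by 1.25 with day 5 DMSO cells alone (edgeR adjusted p = 0.0394). With day 1 benzarone left out as well, 1 gene in all was called higher, so at most 1 of Cebpe, Cebpa, Gfi1 and Kit kept its call. Myc, a driver of growth genes, was higher by 0.58 (edgeR adjusted p = 0.0137) but did not pass with day 5 DMSO cells alone (0.42, edgeR adjusted p = 0.0871). Hoxa9 did not pass (0.18, edgeR adjusted p = 0.287), with -0.0089 from day 5 DMSO cells alone, and neither did Six4, of the retinal determination network (0.24, edgeR adjusted p = 0.394). Ly6c2, Rgcc, Clec12a and Gca, a calcium-binding granule protein, were among the 6 largest rises of genes at 50 CPM or more, by 2.14, 1.82, 1.76 and 1.87 on the log2 scale.

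Cd34 had 4.83, 1.96 and 6.26 CPM in Elane-high cells of day 1 benzarone, day 3 benzarone and day 5 DMSO, against 22.2, 19.8 and 45.9 CPM in Elane-low cells of these samples, lower in 3 of 3. The log2 difference was -2.41 (SE 0.25, edgeR adjusted p = 0.000855), and -2.74 with day 5 DMSO cells alone (edgeR adjusted p = 0.0066). Meis1 had a log2 difference of -1.39 (edgeR adjusted p = 0.000794), Irf8 one of -1.51 (edgeR adjusted p = 0.00107) and Tpm4 one of -2.94 (edgeR adjusted p = 2.87e-05). All 3 passed with day 5 DMSO cells alone, at -1.66, -1.18 and -2.76. With day 1 benzarone left out as well, 0 genes were called lower, so Cd34, Meis1, Irf8 and Tpm4 lost their calls. The genes that sat in few Elane-low cells on day 1 gave mixed results. Ppbp and Cxcl2 behaved less evenly, whereas Mmp8 and Cd74 passed with day 5 DMSO cells alone. Ppbp had 98.0 CPM in Elane-high and 98.1 CPM in Elane-low cells of day 5 DMSO, against 30.2 and 3425 CPM in day 3 benzarone, and its call (-5.96) did not hold with day 5 DMSO cells alone (edgeR adjusted p = 0.146). Cxcl2 likewise had 25.4 CPM in Elane-high and 24.5 CPM in Elane-low cells of day 5 DMSO and did not pass there (edgeR adjusted p = 0.129). Of the 6 largest falls, Arg1, Cxcl3, Ccl2, AA467197, Cd74 and Ppbp, 1 also passed with day 5 DMSO cells alone, the invariant chain gene Cd74 (-5.55, edgeR adjusted p = 0.00732).

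The counts by list stand beside 12.3% higher and 17.8% lower over all genes tested, or 4.19% and 6.36% with day 5 DMSO cells alone. In the first fit 18 of 21 monocyte and macrophage genes were lower and 1 was higher, or 7 and 1 with day 5 DMSO cells alone. Of 27 endoplasmic reticulum genes 17 were higher and 1 lower, or 15 and 0, and of 20 cholesterol synthesis genes 12 were higher and 0 lower, or 10 and 0. Calr was higher by 0.71 on the log2 scale and Fdps by 1.23, or 0.67 and 1.05 with day 5 DMSO cells alone. Of 25 DNA replication genes 14 were higher and 0 lower, but 0 either way with day 5 DMSO cells alone. Ribosome synthesis had 15 of 20 genes higher, or 3 with day 5 DMSO cells alone, and lysosome genes had 12 of 19 lower, or 1. Of 20 stem and progenitor genes 7 were lower and 2 higher, or 7 and 1 with day 5 DMSO cells alone, and 6 were lower in both fits.

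**Figure D5:**
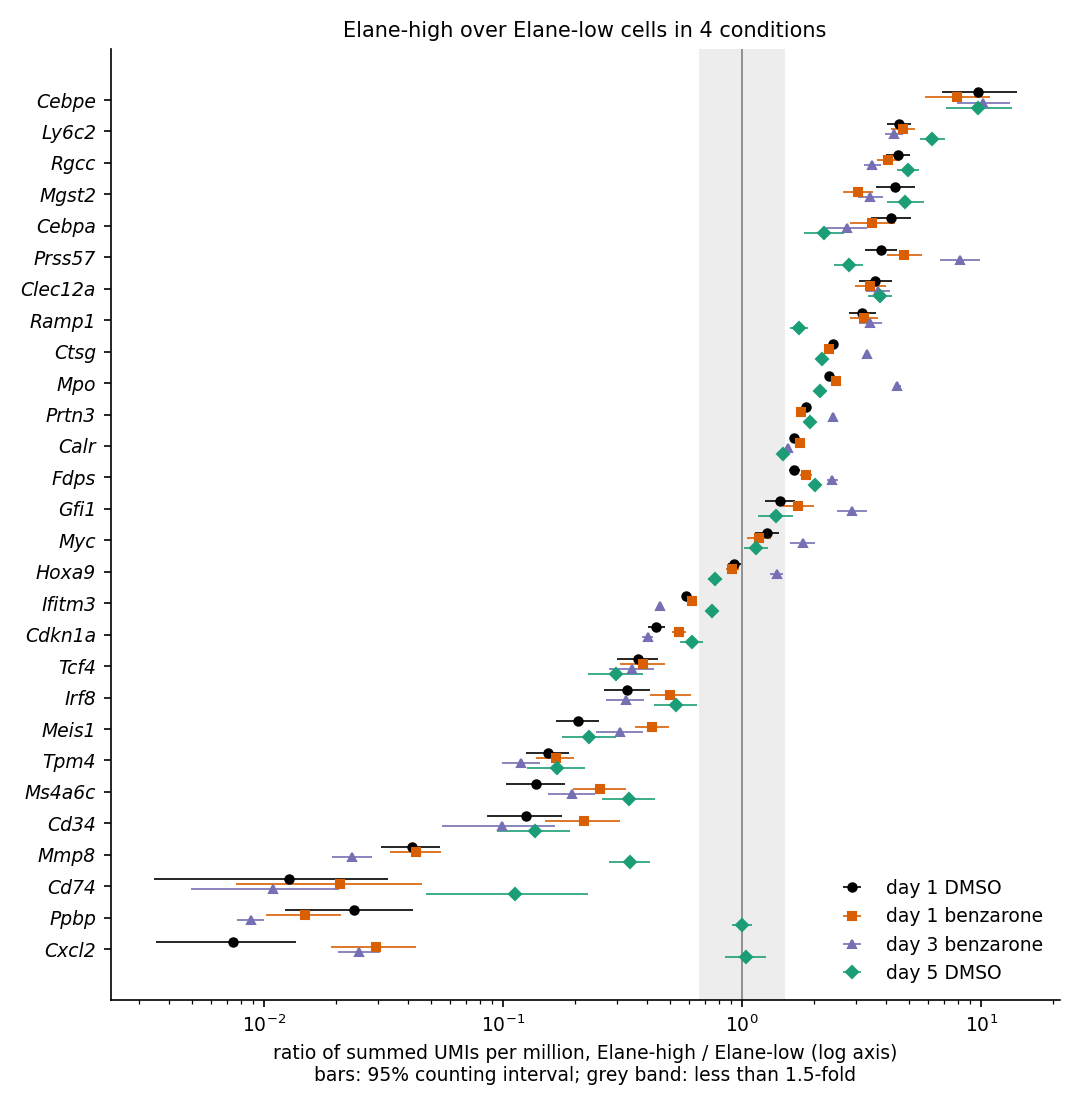
Ratio of summed CPM in Elane-high over Elane-low cells (horizontal axis, log scale) for 28 genes in 4 conditions, with 95% counting intervals, and a grey band where the ratio is under 1.5-fold. Mpo lies between 2.12 and 4.46 and Cebpe between 7.88 and 10.2 in all 4 conditions, whereas Ppbp and Cxcl2 are near 1 in day 5 DMSO and far below it elsewhere.

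Bulk RNA of MOZ-TIF2 cells gave levels of these genes that the rule had not used. It sets MOZ-TIF2 cells against other cells and does not compare Elane classes. In bulk samples fewer cells of a type and less RNA per cell cannot be told apart. In MOZ-TIF2 over differentiated cells edgeR called 2023 of 15224 genes (13.3%) higher and 2463 (16.2%) lower. In MOZ-TIF2 over fresh c-Kit+ cells it called 1718 (11.3%) higher and 1884 (12.4%) lower. Without 1 or the other fresh library the counts against fresh cells were 82 and 132 higher and 292 and 319 lower, and those against differentiated cells 921 and 903 higher and 1577 and 1508 lower. Without 1 or the other differentiated library, 1118 and 1344 genes were higher than in differentiated cells, and without MOZ-TIF2 replicate 2, 1058 were higher than in fresh cells. Mpo had 7557 and 5360.3 CPM in MOZ-TIF2 cells, 0.0955 and 99.9 CPM in differentiated cells, and 4509.96 and 6180.1 CPM in fresh cells. MOZ-TIF2 and fresh cells overlapped, and the 2 differentiated libraries lay far apart, so Mpo did not pass in either comparison (edgeR adjusted p = 0.0666 against differentiated and 0.927 against fresh cells). Elane had 1861 and 871 CPM in MOZ-TIF2 cells, 0 and 24.7 CPM in differentiated cells, and 886 and 1348 CPM in fresh cells, and did not pass either (edgeR adjusted p = 0.054 and 0.914). Prtn3 had 2141 and 1258 CPM in MOZ-TIF2 cells, 0.478 and 36.1 CPM in differentiated cells, and 733 and 979 CPM in fresh cells, and was higher against differentiated cells (log2 6.53, edgeR adjusted p = 0.0359), a call lost without MOZ-TIF2 replicate 1 (6.09) or without either fresh library (6.50 and 6.53). Ctsg had 2753 and 1018 CPM in MOZ-TIF2 cells, 21.1 and 55.7 CPM in differentiated cells, and 369 and 455 CPM in fresh cells, with log2 differences of 5.62 (edgeR adjusted p = 0.00388) and 2.20 (edgeR adjusted p = 0.0529).

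Cebpe had 41.0 and 80.1 CPM in MOZ-TIF2 cells, 0.621 and 0.346 CPM in differentiated cells, and 69.0 and 74.7 CPM in fresh cells. It was higher against differentiated cells by 6.99 on the log2 scale (edgeR adjusted p = 0.00057) and overlapped with fresh cells (-0.25, edgeR adjusted p = 0.645). Gfi1 was higher against both, with 379 and 322 CPM in MOZ-TIF2 cells, 12.7 and 25.1 CPM in differentiated cells, and 27.2 and 34.6 CPM in fresh cells (log2 4.21 and 3.50, edgeR adjusted p = 0.0012 and 0.00372). Irf8 had 6.20 and 14.3 CPM in MOZ-TIF2 cells, 17.8 and 8.33 CPM in differentiated cells, and 151 and 144 CPM in fresh cells, lower against fresh cells (-3.84, edgeR adjusted p = 0.00777). Cd34 had 4.97 and 2.98 CPM in MOZ-TIF2 cells, 437 and 1100.2 CPM in differentiated cells, and 137 and 121 CPM in fresh cells, lower against both (edgeR adjusted p = 0.00082 and 0.00395). Meis1 had 111 and 66.8 CPM in MOZ-TIF2 cells, 100.2 and 88.7 CPM in differentiated cells, and 21.5 and 12.5 CPM in fresh cells, higher against fresh cells (log2 2.39, edgeR adjusted p = 0.01). The calls of Gfi1, Irf8 and Meis1 against fresh cells were lost without either fresh library, with log2 differences of 3.31 and 3.69 for Gfi1, -3.84 and -3.88 for Irf8, and 2.81 and 2.05 for Meis1. The differentiated libraries carried mast cell markers, with Cpa3, a mast cell carboxypeptidase, at 0.273 and 1.52 CPM in MOZ-TIF2 cells, 22819 and 36330 CPM in differentiated cells, and 29.6 and 25.0 CPM in fresh cells. Of the 16 genes of the mast cell list, 15 were lower in MOZ-TIF2 than in differentiated cells. The list summed to 63.0 and 51.7 CPM in MOZ-TIF2 cells, 67447 and 98381 CPM in differentiated cells, and 581 and 620.3 CPM in fresh cells. What this adds to the comparisons with differentiated cells was not tested.

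Of the 156 genes measured in bulk that were at least 1.5-fold higher in Elane-high cells, 88 (56.4%) were higher and 14 lower in MOZ-TIF2 than in differentiated cells, beside 15.9% higher and 14.4% lower among the 9169 genes listed in the single-cell table. Against fresh cells, 56 of the 156 (35.9%) were higher and 8 lower, beside 14.5% higher and 6.61% lower among those 9169. Of the 312 genes that were at least 1.5-fold lower in Elane-high cells, 41 were higher and 105 lower against differentiated cells, and 71 were higher and 56 lower against fresh cells. The 156 and 312 genes had to reach the CPM and UMI minimum in the higher class, which is made of MOZ-TIF2 cells. The 9169 listed genes did not have to reach it, so their shares are no baseline matched for level. How much of the higher shares among the 156 genes rests on that minimum was not tested.

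Ty1 peaks mark where the tagged fusion was found on chromatin. They lay beside Elane, Mpo, Prtn3 and Ctsg, but beside a smaller share of the higher genes than of all genes tested. The replicates had 3676 and 4564 peaks, and 3303 peaks of replicate 1 overlapped one of replicate 2. A shared peak lay on or within 5 kb of 51 of the 155 higher genes with coordinates (32.9%), 144 of 306 lower genes (47.1%) and 2276 of 4739 genes tested (48.0%). Elane, Mpo, Ctsg, Cebpa, Gfi1 and Prss57 had 1 shared peak each, and Prtn3, Hoxa9 and Meis1 had 2 each. Elane and Prtn3 are close enough to share a peak. No shared peak lay within 5 kb of Cebpe, Ly6c2, Irf8 or Cd34. For the promoter cores, TTGCNNAA stood in 14 of the 88 promoters of higher genes (15.9%), 22 of the 187 of lower genes (11.8%) and 8.20% of those of all genes tested. GAGGAA stood in 36.4% of promoters of higher genes, 35.3% of lower genes and 26.6% of all genes tested.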

How the data were processed

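Single-cell RNA was read on the 10x platform with hashtags that mark conditions, and the deposited tables hold whole UMI counts per gene and cell, made with Cell Ranger 3.0.0 per the submitters' processing notes. The bulk table holds estimated counts per gene as deposited (Salmon 0.13.0 is named in the submitters' processing notes, without its role), and they were rounded here. The Ty1 peaks are bare intervals (GRCm38), and their caller is not given in the sources used here. Cells were neither filtered further nor clustered, and doublets were not called, so the part of doublets and of free RNA in droplets was not tested.

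UMIs were summed over the cells of a class and given per 1000000 listed UMIs (CPM), with exact Poisson intervals (95%) and exact conditional binomial intervals for ratios. A gene counted as higher or lower at 1.5-fold with 20 CPM and 20 UMIs in the higher class. Tests used edgeR 4.0.16 in R 4.3.3 (filterByExpr, TMM, quasi-likelihood F test, two-sided, Benjamini-Hochberg over all genes tested, threshold 0.05), over 3 samples with the sample as a block because both classes come from 1 library, and over all 6 bulk libraries. Bulk totals ran from 12397400 to 34463800 counts. Nothing says that replicates came from separate cultures, so the p-values cover no more than the spread among these samples, possibly technical. On simulated data with 200 changed genes among 9164, the single-cell test recovered 93.5% at a log2 change of 1 with 10 false calls. Among 15224 genes the bulk test recovered 42.1% at a log2 change of 2 with 3 false calls. Both simulations gave all genes the same relative spread between samples, which the single-cell simulation did not take from the data. Each change was also the same in every sample, so these rates may not hold for the real data.

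Alternatives were another Elane limit, thinned counts, other S100a8 and S100a9 limits, a higher level minimum, DESeq2 1.42.0, no filter, each sample left out and day 5 DMSO cells alone, the last chosen after seeing the data. Named genes are a fixed set (such as Mpo, Prtn3, Ctsg, Cebpa, Cebpe, Irf8, Kit, Cd34, Hoxa9 and Meis1), the 12 largest and 12 smallest day 1 ratios at 50 CPM, up to 3 members of each of 25 lists, and the 6 largest rises and falls of the test. Other genes named were chosen after their values were seen. The cells and the lists were chosen with earlier results of these data known. Gene positions and promoters come from RefSeq tables (GRCm38.p6). Whether peak starts count from 0 or 1 is not settled by the files. The acetylated histone and input samples were not analysed here.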

Additional observations from a re-analysis of the deposited data

How the results depend on the processing

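In day 1 DMSO, the counts of 159 higher and 317 lower genes became 311 higher with Elane-low cells at 0 UMIs, 566 and 628 with S100a8 and S100a9 under 100 CPM (18 Elane-high and 41 Elane-low cells), and 81 and 131 with a minimum of 50 CPM, and stayed within 1.5 times under the other settings. Of the values of single genes, 298 moved by less than their counting interval and 142 by more. Of those called at least 1.5-fold higher or lower, 0 changed sign. Six4 was under 20 CPM in both classes and had no call. Its ratio moved from 0.57 to 1.74 with Elane-low cells at 0 UMIs. In the other samples, leaving out 1 sample gave 182 to 1097 higher and 882 to 1835 lower genes, and with day 5 DMSO cells alone 1 to 795 and 0 to 1334 (239 and 327 without day 3 benzarone). The day 5 agents as 2 blocks gave 264 and 696, no replicate block 333 and 885, day 5 DMSO cells alone 384 and 583, and DESeq2 on the last 442 and 534. S100a8 and S100a9 under 100 CPM was not fitted there. At that limit day 5 DMSO held 2 Elane-high and 8 Elane-low cells, and day 5 benzarone 0 and 9. Day 1 benzarone held 45 and 64 and day 3 benzarone 35 and 71, but no fit of these samples was made at that limit. Differences that changed sign had not passed the test: Hoxa9 to -0.0089 and -0.22, Six4 to -0.19, and Cd63 to 0.24, 0.074, 0.33, 0.21, 0.81 and 0.36. In bulk, leaving out 1 library gave 903 to 1883 higher and 1508 to 2395 lower genes against differentiated cells, and 82 to 1655 and 292 to 1887 against fresh cells. Bulk replicate numbers did not pair the samples (correlations of deviations -0.05, -0.08 and -0.01), and a replicate block gave 931 higher and 1163 lower genes against fresh cells. Without single bulk libraries Irf8 ran from -1.07 to 0.29 and Meis1 from -0.50 to 0.23 against differentiated cells, and Elane from -0.36 to 0.74 and Cebpe from -0.81 to 0.16 against fresh cells. At an Elane limit of 800 CPM the shares of Elane-high cells were 15.5% in day 1 benzarone, 15.6% in day 1 DMSO, 18.9% in day 3 benzarone and 9.74% in day 5 DMSO, and without the S100a8 and S100a9 limit 2.87% in day 5 benzarone. The causes of these shifts were not tested. Depth limits genes near 20 CPM, which rest on few UMIs per class.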
